A study of Mus musculus with 15 samples.

Results

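Nodal, Lefty1, Lefty2, Tdgf1 and Cer1 encode the extracellular core of the Nodal pathway, and their 5 rows were taken by gene symbol from a table of 24451 genes. All 5 symbols were present, and all 5 genes were among the 14600 that passed a filter on low counts. Cer1 was near the limit of detection in several groups and passed the filter through the libraries in which it was high. RNA was sequenced from mouse ES-R1 embryonic stem cells, a single line that the labels trace to the inner cell mass. The cells were grown without serum, in DMEM with the N2 and B27 supplements, and differentiated for 4 days. There were 5 groups of 3 libraries. They were Vprbp siRNA with Activin A at 25 ng/ml, control siRNA with Activin A at 25 ng/ml, control siRNA with the receptor inhibitor SB, Vprbp siRNA without addition, and control siRNA without addition. All 15 libraries came from siRNA-treated cells in the same medium, so no untransfected cells were among them. SB was used with the control siRNA only at a dose that the labels do not state. Its number is written differently in the sample titles and the series text, so it is called SB here. Nothing in the labels ties replicates to separate cultures, and p-values therefore measure the spread between these libraries, which may be technical.

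Nodal is a secreted ligand of the TGF-beta family that signals, as Activin does, through the type I receptor ALK4 and activin type II receptors to phosphorylate Smad2 and Smad3. Nodal, unlike Activin, needs a co-receptor of the EGF-CFC family, and Tdgf1 encodes Cripto, the co-receptor of this family in the early mouse embryo. Lefty1 and Lefty2 are secreted antagonists that bind Nodal or its co-receptor, and Cer1 encodes Cerberus-like, a secreted antagonist that binds Nodal and BMP ligands. In the embryo, Smad2 and Smad3 act with the DNA-binding partner Foxh1 on Nodal itself and on Lefty genes, so that the pathway switches on both its ligand and its inhibitors. SB blocks the kinase of ALK4, and also that of ALK5 and ALK7. The siRNA target Vprbp (Dcaf1) encodes a protein that brings substrates to the CRL4 ubiquitin ligase.

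Lefty1 (chromosome 1, 180935022 to 180938401) and Lefty2 (chromosome 1, 180893108 to 180899107) are neighbours, with 35914 bases between them on GRCm38.p6. Their coding sequences were 1104 bases each, in GENCODE M21, and matched at 1014 positions, or 91.8%. The 60-base coding window with the most differences held 18 of them, marked by capitals below. It is shown because it marks where a read can be assigned to a single Lefty gene.
Lefty1, chr1:180935143-180935202, GRCm38, + strand: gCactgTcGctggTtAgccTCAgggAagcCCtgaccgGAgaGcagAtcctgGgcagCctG
Lefty2, chr1:180893217-180893276, GRCm38, + strand: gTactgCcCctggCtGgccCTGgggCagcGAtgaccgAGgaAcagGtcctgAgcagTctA
Of all 50-base windows along the transcripts, 17.9% of those of Lefty1 also occurred in Lefty2, and 11.6% of those of Lefty2 also occurred in Lefty1. For Tdgf1, 12.5% of windows occurred in the pseudogene Tdgf1-ps1. The share was 1.78% for Cer1 and 0 for Nodal. Counts that rest on such windows may have been dropped or split between the copies, so the levels of Lefty1, Lefty2 and Tdgf1 are less certain than that of Nodal. No other annotated gene overlapped any of the 5 genes.

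The 250 bases before the start of Nodal (chromosome 10, 61417972 to 61425338), Tdgf1 (chromosome 9, 110939608 to 110946158) and Cer1 (chromosome 4, 82881751 to 82885151) are given from RefSeq promoters on GRCm38.p6. These 3 genes, like Lefty1 and Lefty2, had their lowest mean under SB. The promoter set used held no entry for Lefty1 or Lefty2, so their promoters are not shown. Capitals mark matches to the SMAD box, searched as CAGAC on both strands.
Nodal, chr10:61417722-61417971, + strand: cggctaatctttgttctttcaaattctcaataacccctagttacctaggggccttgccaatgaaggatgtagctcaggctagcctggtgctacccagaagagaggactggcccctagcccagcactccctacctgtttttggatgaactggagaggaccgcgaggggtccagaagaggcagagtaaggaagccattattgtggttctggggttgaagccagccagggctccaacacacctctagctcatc
Tdgf1, chr9:110946159-110946408, - strand: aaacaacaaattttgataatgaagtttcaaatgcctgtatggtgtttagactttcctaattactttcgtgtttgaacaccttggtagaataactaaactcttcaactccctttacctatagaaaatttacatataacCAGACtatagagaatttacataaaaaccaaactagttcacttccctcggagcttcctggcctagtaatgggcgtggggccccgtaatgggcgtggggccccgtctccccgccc
Cer1, chr4:82885152-82885401, - strand: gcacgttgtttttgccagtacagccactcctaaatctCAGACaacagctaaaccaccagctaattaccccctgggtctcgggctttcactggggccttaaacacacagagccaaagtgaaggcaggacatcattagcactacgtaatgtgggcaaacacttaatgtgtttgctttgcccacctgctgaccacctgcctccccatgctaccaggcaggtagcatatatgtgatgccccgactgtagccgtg
A match to CAGAC began 113 bases before the start of Tdgf1 and 213 bases before the start of Cer1, and no match was found in the window of Nodal. Of 32851 promoter windows of this length, 42.2% held a match. The FOXH1 motif, searched as AATNCACA on both strands, was in none of the 3 windows and in 3.18% of all windows. The Tdgf1 window held the 19-base run gtaatgggcgtggggcccc in tandem, from 50 and from 31 bases before the start. Matches of letters are a description of these windows only.

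Gene counts per library totalled 11.1 M to 15.5 M (M, mega). Levels are given as CPM, gene counts divided by the TMM-scaled library total in M. Vprbp RNA was 148.8, 131.4 and 134.7 CPM in Vprbp siRNA with Activin, against 178.1, 175.2 and 183.9 CPM in control siRNA with Activin. Without Activin it was 121.1, 131.6 and 113.9 CPM in Vprbp siRNA, against 173.4, 166.9 and 172.8 CPM in control siRNA. It was lower in every Vprbp siRNA library than in every control siRNA library of the same treatment, with log2 fold changes of -0.37 ± 0.06 with Activin (SE; edgeR adjusted p = 0.037) and -0.49 ± 0.07 without (adjusted p = 0.0020). Vprbp was also lower with SB than without, at 144.1, 151.4 and 157.4 CPM in the SB libraries, with a log2 fold change of -0.18 ± 0.06 (SE; edgeR adjusted p = 0.049). That call was lost when any of its 6 libraries was left out (adjusted p = 0.057 to 0.19). The call of Vprbp with Activin was lost without any of its 6 libraries except Vprbp siRNA + Activin replicate 1 (-0.38 to -0.33, adjusted p = 0.057 to 0.30), and the call without Activin was kept in all 6 fits. The call without Activin was lost in a fit of only the 6 libraries compared (-0.49, edgeR adjusted p = 0.15). A single siRNA label is given for Vprbp, so the loss of Vprbp and any off-target action of that siRNA cannot be told apart. Markers of pluripotent cells were high in all libraries, with the 8 genes of that list summing to 2430 to 2790 CPM with SB and to 3820 to 4310 CPM in the other 4 groups.

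Levels of the ligand Nodal formed a narrow ladder. They were 103.7, 118.7 and 115.2 CPM in Vprbp siRNA with Activin, 113.8, 111.7 and 121.8 CPM in control siRNA with Activin, 34.0, 39.5 and 43.2 CPM with SB, 83.2, 95.5 and 85.0 CPM in Vprbp siRNA, and 84.8, 83.9 and 63.6 CPM in control siRNA. All 6 Activin libraries lay above all 6 untreated libraries, and the SB libraries lay below every other library. The 2 Activin groups overlapped each other, and so did the 2 untreated groups. The share of all genes with such an order over several groups was not counted. Orders of groups, here and for the genes below, are therefore a description only, and shares for pairs of groups are given with the comparisons.

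Tdgf1, the gene of the co-receptor Cripto, stood at 554.9, 586.3 and 532.7 CPM in Vprbp siRNA with Activin, 503.8, 455.2 and 433.5 CPM in control siRNA with Activin, 23.5, 33.5 and 27.7 CPM with SB, 307.6, 358.4 and 179.2 CPM in Vprbp siRNA, and 265.9, 225.8 and 130.3 CPM in control siRNA. In order of their means, the ranges of neighbouring groups did not overlap, except for the 2 untreated groups.

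The antagonist genes Lefty1 and Lefty2 were low with SB and high with Activin. Lefty1 had 327.4, 262.4 and 262.8 CPM in Vprbp siRNA with Activin, 253.3, 238.8 and 272.1 CPM in control siRNA with Activin, 1.38, 1.81 and 1.5 CPM with SB, 125.6, 153.5 and 56.1 CPM in Vprbp siRNA, and 102.2, 105.0 and 38.0 CPM in control siRNA. Lefty2 had 283.8, 189.3 and 196.6 CPM in Vprbp siRNA with Activin, 199.0, 179.8 and 213.6 CPM in control siRNA with Activin, 1.31, 0.724 and 1.07 CPM with SB, 74.6, 86.3 and 35.2 CPM in Vprbp siRNA, and 56.4, 55.4 and 16.6 CPM in control siRNA. For both genes the Activin groups overlapped each other and the untreated groups overlapped each other, and SB lay below every other library. The SB levels rest on 19 to 25 counts of Lefty1 and 10 to 18 counts of Lefty2 per library.

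Cer1 was low in most libraries and high in a single library. It had 51.2, 6.14 and 2.78 CPM in Vprbp siRNA with Activin, 4.51, 1.35 and 1.78 CPM in control siRNA with Activin, 0 in all 3 SB libraries, 0.611, 0.977 and 2.68 CPM in Vprbp siRNA, and 1.22, 0.0725 and 0.449 CPM in control siRNA. The lowest of these untreated values rests on 1 count. A count of 0 in the 3 SB libraries together allows up to 0.0722 CPM, taking 3 counts over the group as the limit and covering counting error only. The 0 of a single SB library cannot be told from the control siRNA library with 1 count at this depth. The other 4 groups overlapped from each to the next in order of their means.

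**Figure D1:**
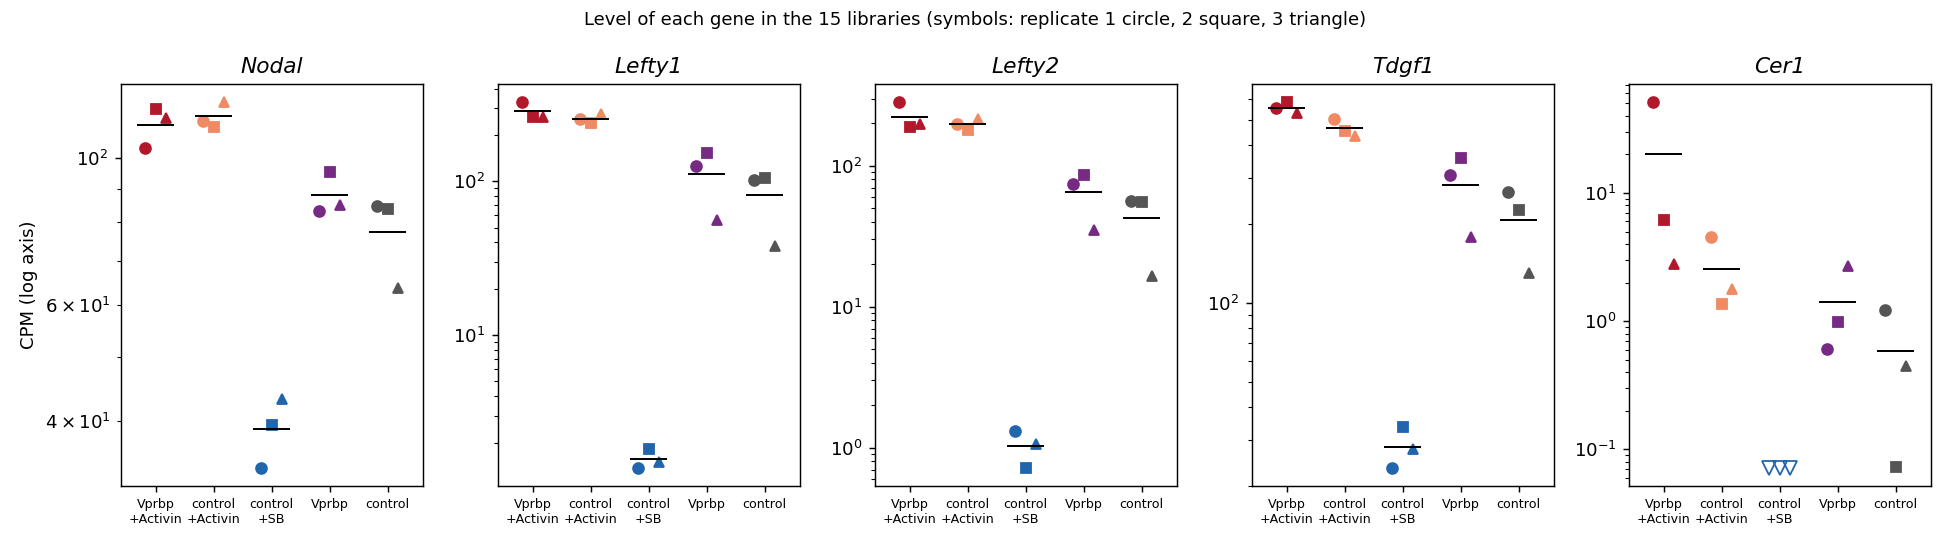
Level of Nodal, Lefty1, Lefty2, Tdgf1 and Cer1 in each of the 15 libraries, in CPM on log axes that differ between panels, by group from left to right: Vprbp siRNA with Activin, control siRNA with Activin, control siRNA with SB, Vprbp siRNA and control siRNA. Filled symbols are libraries, lines are group means of 3, and open triangles for Cer1 mark the limit of 0.0722 CPM that a count of 0 over the SB group allows; SB libraries lie lowest for Nodal, Lefty1, Lefty2 and Tdgf1, and for Cer1 the SB limit lies beside a control siRNA library with 1 count.

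Per kilobase of exon, which allows levels to be compared between genes, Tdgf1 was the highest of the 5 in every group but SB. With Activin and control siRNA, it stood at 177 ± 13.7 CPM per kb, Lefty1 at 145 ± 9.49, Lefty2 at 75.6 ± 6.49, Nodal at 55.3 ± 2.53 and Cer1 at 1.47 ± 0.985 (SD, n = 3). With SB the order was another, and Nodal at 18.6 ± 2.20 CPM per kb stood above Tdgf1 at 10.8 ± 1.92, Lefty1 was at 0.890 ± 0.125 and Lefty2 at 0.396 ± 0.113. In untreated control siRNA cells Tdgf1 was at 79.1 ± 26.6, Lefty1 at 46.5 ± 21.5, Nodal at 37.0 ± 5.72, Lefty2 at 16.4 ± 8.70 and Cer1 at 0.334 ± 0.337 CPM per kb.

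Activin with the control siRNA raised the ligand, the co-receptor and both Lefty antagonists. The log2 fold change was 0.58 ± 0.10 for Nodal (SE; edgeR adjusted p = 0.0024), 1.16 ± 0.28 for Tdgf1 (adjusted p = 0.042), 1.64 ± 0.39 for Lefty1 (adjusted p = 0.041) and 2.20 ± 0.42 for Lefty2 (adjusted p = 0.017). Thus 4 of 5 genes rose, against 2.95% of the 14600 genes tested that were called higher. Cer1 was not called, at 2.09 ± 1.68 (adjusted p = 0.54; 95% interval -1.65 to 5.84), although its 3 Activin libraries were above its 3 untreated libraries. The 4 genes that rose had group ranges that did not overlap, with Activin higher, as did 14% of genes tested. Cer1 is not counted here, since it passed the filter through libraries in which it was high. Means were 115.8 ± 5.31 CPM with Activin against 77.4 ± 12.0 CPM without for Nodal, and 464.2 ± 36.0 CPM against 207.3 ± 69.6 CPM for Tdgf1 (SD, n = 3 each).

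The calls of Lefty1 and Tdgf1 sat close to the threshold. Leaving out any single library of the 6 ended the call of Lefty1 (1.30 without control siRNA replicate 3 to 1.85 without control siRNA replicate 2, adjusted p = 0.056 to 0.12). That of Tdgf1 ended in 5 of the 6 fits, all but the fit without control siRNA replicate 1, with 0.91 (adjusted p = 0.12) without control siRNA replicate 3 as the lowest value. Lefty2 lost its call without control siRNA + Activin replicate 3 (2.14, adjusted p = 0.062), and Nodal kept its call in all 6 fits.

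SB lowered the same 4 genes in control siRNA cells. The log2 fold change was -0.99 ± 0.10 for Nodal (edgeR adjusted p = 1.2e-06), -2.88 ± 0.31 for Tdgf1 (adjusted p = 7.4e-05), -5.70 ± 0.63 for Lefty1 (adjusted p = 9.2e-05) and -5.36 ± 0.73 for Lefty2 (adjusted p = 0.00039). The 4 of 5 genes called lower compare with 11.3% of all genes tested. These 4 genes lay lower in every SB library than in every untreated control siRNA library, as did 18.4% of genes tested. Means of Lefty1 were 1.56 ± 0.22 CPM with SB against 81.8 ± 37.9 CPM in untreated control siRNA, and those of Tdgf1 were 28.2 ± 5.03 CPM against 207.3 ± 69.6 CPM (SD, n = 3 each). Cer1 had 0 counts with SB. Its mean in untreated control siRNA was 8.05 times the limit of 0.0722 CPM for the SB group, or 3.61 times without control siRNA replicate 1. That limit covers counting error only, and control siRNA replicate 2 lay beside it at 0.0725 CPM. edgeR did not call Cer1 (adjusted p = 0.48; 95% interval -17.74 to 5.65), while DESeq2 did (adjusted p = 0.0087). In these bulk libraries, fewer cells that express a gene and less of its RNA per cell cannot be told apart.

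Between Activin and SB, both with control siRNA, all 4 were higher with Activin, Lefty2 by 7.56 ± 0.67 (edgeR adjusted p = 9e-06), Lefty1 by 7.34 ± 0.61 (adjusted p = 5.3e-06), Tdgf1 by 4.04 ± 0.32 (adjusted p = 3.3e-06) and Nodal by 1.57 ± 0.10 (adjusted p = 9.7e-10), all log2. These were 4 of 5 genes higher, against 19% of all genes tested. For these 4 genes the Activin libraries lay above every SB library, as in 27.2% of genes tested. Cer1 is left out here, since it passed the filter through libraries in which it was high. The Cer1 mean with Activin was 35.3 times the SB limit, which covers counting error only, or 21.7 times without control siRNA + Activin replicate 1. The call of Cer1 depended on the fit (edgeR adjusted p = 0.12 over all 15 libraries, with a 95% interval of -0.17 to 16.45, 0.00011 over only the 6 libraries compared, and DESeq2 4.7e-05). On mean log2 CPM (prior count 2), the level in untreated control siRNA cells lay 62.5% of the way from SB to Activin for Nodal, 69.8% for Tdgf1, 75.4% for Lefty1, 67.7% for Lefty2 and 48.3% for Cer1, where the prior count sets the SB end.

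**Figure D2:**
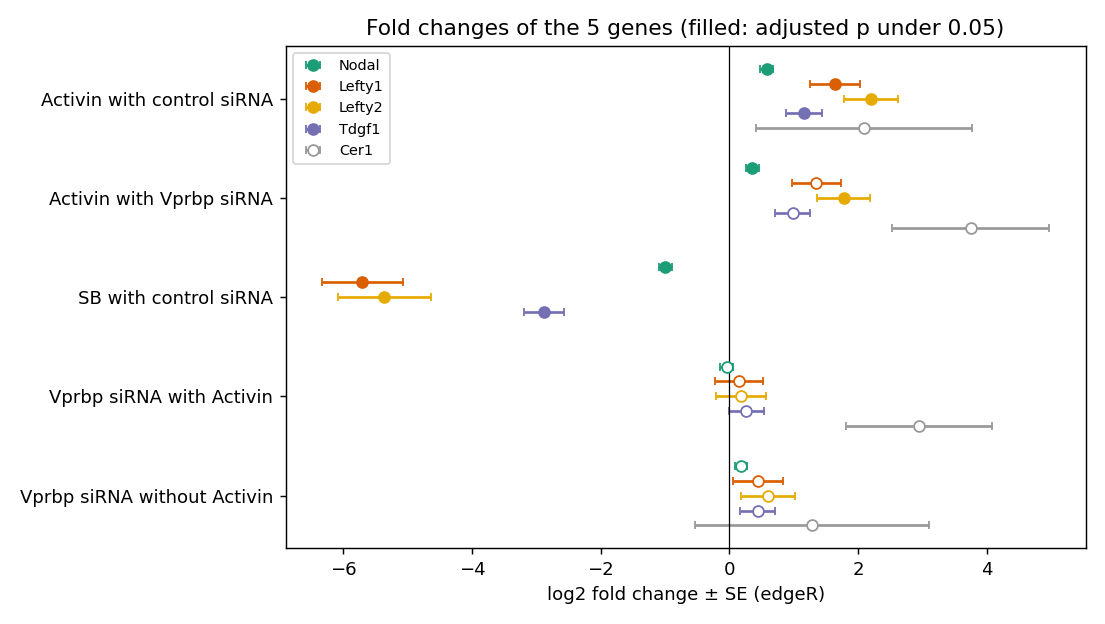
Log2 fold change of each of the 5 genes (x axis, with the SE of the edgeR fit as bars) in 5 comparisons, filled where the adjusted p over all genes was under 0.05. Lefty1 and Lefty2 reach -5.70 and -5.36 with SB, while every point of the 2 Vprbp siRNA comparisons is open; Cer1 is not drawn for SB, where it had 0 counts.

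Within each library the ratio of the 2 Lefty genes does not depend on library scaling. Lefty1 CPM over Lefty2 CPM was 1.15, 1.39 and 1.34 in Vprbp siRNA with Activin, 1.27, 1.33 and 1.27 in control siRNA with Activin, 1.06, 2.50 and 1.40 with SB, 1.68, 1.78 and 1.59 in Vprbp siRNA, and 1.81, 1.90 and 2.30 in control siRNA. Each Activin library had a lower ratio than each untreated library. On a log2 scale with 0.5 CPM added, the ratio with control siRNA was 0.37 ± 0.03 with Activin against 0.98 ± 0.17 without (SD, n = 3 each), a difference of -0.61. With Vprbp siRNA it was 0.36 ± 0.14 with Activin against 0.75 ± 0.08 without, a difference of -0.38. Both had an exact two-sided permutation p of 0.1, the smallest that 3 against 3 libraries allow, and 0.2 after Benjamini-Hochberg adjustment over the 6 comparisons of this ratio. Without Activin the ratio was also lower in each Vprbp siRNA library than in each control siRNA library (0.75 ± 0.08 against 0.98 ± 0.17, difference -0.24, exact permutation p = 0.1, adjusted 0.2). With Activin it was 0.36 ± 0.14 in Vprbp siRNA and 0.37 ± 0.03 in control siRNA (exact permutation p = 1). The SB ratios rest on few counts.

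Antagonist RNA was next set against ligand RNA within each library. Per kilobase, Lefty1 and Lefty2 together were 5.96, 3.92 and 4.09 times the level of Nodal in Vprbp siRNA with Activin, and 4.05, 3.84 and 4.07 times in control siRNA with Activin. They were 0.0792, 0.0693 and 0.0615 times the level of Nodal with SB, against 2.52, 2.64 and 1.12 times in Vprbp siRNA and 1.97, 2.02 and 0.922 times in control siRNA. The groups with Activin, without addition and with SB did not overlap. Tdgf1 per Nodal followed the same order, at 2.84 to 4.27 in the 6 Activin libraries, 0.513 to 0.678 with SB and 1.64 to 3.00 in the 6 untreated libraries, where the untreated and Activin ranges overlapped.

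**Figure D3:**
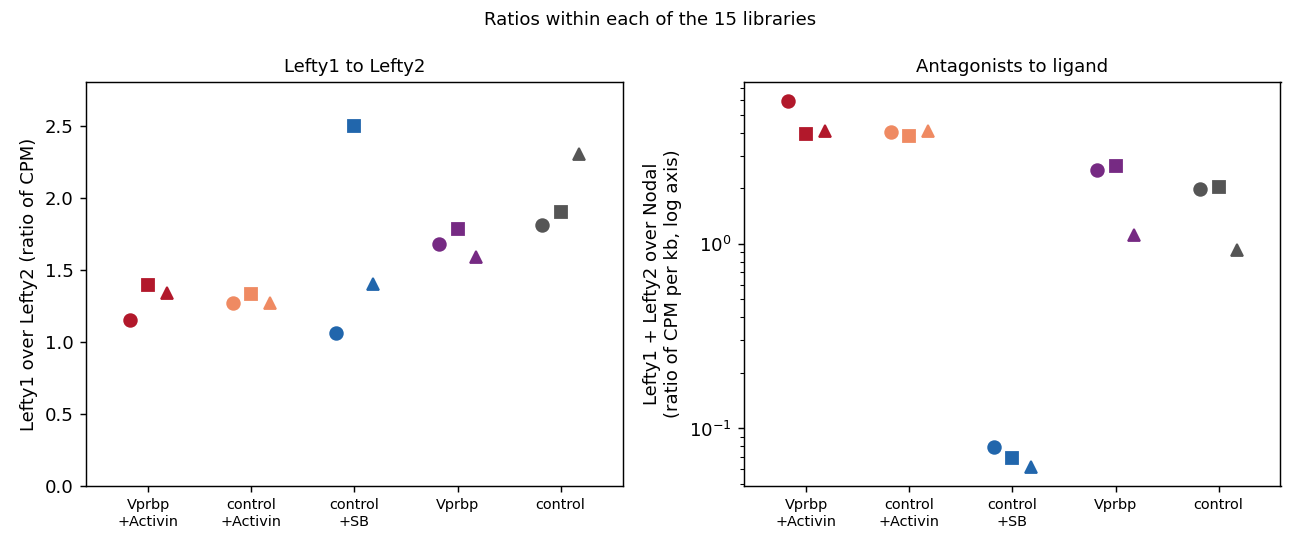
Left, Lefty1 CPM over Lefty2 CPM in each library; right, the summed Lefty1 and Lefty2 level per kilobase over that of Nodal, on a log axis, with groups as in the plot of levels (replicate 1 circle, 2 square, 3 triangle). The Lefty1 to Lefty2 ratio is 1.15 to 1.39 in the 6 Activin libraries and 1.59 to 2.30 in the 6 untreated ones, and the SB libraries lie below 0.08 on the right.

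Vprbp siRNA without Activin gave higher means of all 5 genes, none of which passed the test. Means were 87.9 ± 6.65 CPM in Vprbp siRNA against 77.4 ± 12.0 CPM in control siRNA for Nodal, 281.7 ± 92.3 against 207.3 ± 69.6 for Tdgf1, 111.8 ± 50.1 against 81.8 ± 37.9 for Lefty1, 65.4 ± 26.8 against 42.8 ± 22.7 for Lefty2, and 1.42 ± 1.11 against 0.581 ± 0.586 for Cer1 (SD, n = 3 each). The log2 fold changes were 0.18 ± 0.10 for Nodal (edgeR adjusted p = 0.67; 95% interval -0.04 to 0.41), 0.44 ± 0.28 for Tdgf1 (0.72; -0.17 to 1.05), 0.44 ± 0.39 for Lefty1 (0.79; -0.42 to 1.31), 0.60 ± 0.42 for Lefty2 (0.74; -0.34 to 1.54) and 1.29 ± 1.82 for Cer1 (0.90; -2.77 to 5.35). Thus edgeR called 0 of 5 genes, against 0.0411% of all genes tested, DESeq2 called 0 of 5, and 0 of 5 had an unadjusted p under 0.05, against 8.16% of all genes. The ranges of the groups overlapped for each of the 5, while they did not overlap for 12.3% of genes tested.

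In both untreated groups the replicate 3 library was the lowest of its 3 for Lefty1, Lefty2 and Tdgf1, at 56.1 CPM of Lefty1 in Vprbp siRNA and 38.0 CPM in control siRNA. Among same-numbered libraries, Vprbp siRNA over control siRNA was 1.23, 1.46 and 1.48 for Lefty1, 1.32, 1.56 and 2.13 for Lefty2, 1.16, 1.59 and 1.38 for Tdgf1 and 0.981, 1.14 and 1.34 for Nodal. Lefty1, Lefty2 and Tdgf1 were thus higher with Vprbp siRNA in 3 of 3 pairs, and Nodal and Cer1 in 2 of 3. With Activin, Tdgf1 and Cer1 were higher in 3 of 3 pairs, Lefty1 and Lefty2 in 2 of 3 and Nodal in 1 of 3. The share of all genes higher in 3 of 3 pairs was not counted, so these counts are a description only. Without Activin, a fit with the replicate number as a block still called none of the 5 genes, with 0.45 ± 0.34 for Lefty1 and 0.63 ± 0.37 for Lefty2 (edgeR adjusted p = 0.71 and 0.63). That fit called 18 of all genes tested, against 6 without the block.

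Earlier results of these data had set control siRNA replicate 3, Vprbp siRNA replicate 3 and Vprbp siRNA + Activin replicate 1 apart from the rest. In a fit without these 3 libraries, Lefty1 (0.43 ± 0.08, adjusted p = 0.0058) and Lefty2 (0.53 ± 0.09, adjusted p = 0.0015) were called higher with Vprbp siRNA without Activin, and Tdgf1 was not (0.44 ± 0.13, adjusted p = 0.24). That fit called 0.414% of all genes higher. Both groups then held 2 libraries, and the libraries were left out with their Lefty levels known.

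**Figure D4:**
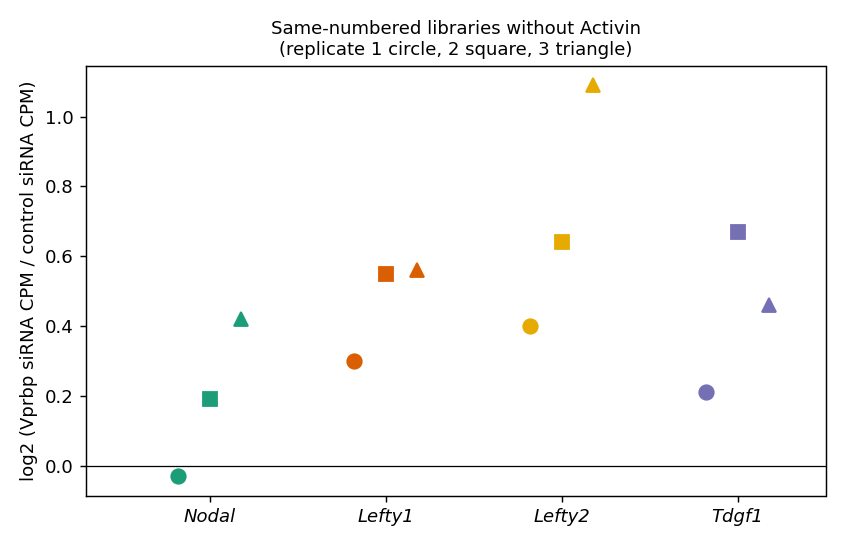
Log2 ratio of Vprbp siRNA CPM to control siRNA CPM without Activin, for libraries with the same replicate number, by gene. Lefty1 lies at 0.30 to 0.56, Lefty2 at 0.40 to 1.09, Tdgf1 at 0.21 to 0.67 and Nodal at -0.03 to 0.42.

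With Activin present, Vprbp siRNA changed none of the 5 genes by the test, while 0.0411% of all genes tested were called. Nodal was at 112.5 ± 7.82 CPM in Vprbp siRNA against 115.8 ± 5.31 CPM in control siRNA, a log2 fold change of -0.04 ± 0.10 (edgeR adjusted p = 0.92; 95% interval -0.26 to 0.18). Lefty1 stood at 284.2 ± 37.4 against 254.7 ± 16.7 CPM (0.16 ± 0.37; -0.67 to 0.99) and Lefty2 at 223.2 ± 52.6 against 197.5 ± 17.0 CPM (0.18 ± 0.39; -0.69 to 1.04). Tdgf1 was the only gene of the 5 whose ranges did not overlap, at 558 ± 26.9 CPM in Vprbp siRNA against 464.2 ± 36.0 CPM in control siRNA (0.27 ± 0.27, edgeR adjusted p = 0.79; -0.34 to 0.87), as was so in the higher direction for 8.38% of genes tested. Neither DESeq2 nor the fit with a replicate block called any of the 5, and Cer1 alone had an unadjusted p under 0.05, at 0.0312 (2.95 ± 1.14, adjusted p = 0.42; 0.41 to 5.49), as had 10.5% of all genes.

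The Cer1 difference rested on replicate 1 of Vprbp siRNA with Activin. That library held 51.2 CPM, 8.35 times the highest of the other 14. Without it, Cer1 averaged 4.46 CPM in the 2 remaining Vprbp siRNA libraries against 2.55 CPM in control siRNA with Activin, a log2 fold change of 0.80. The same library had the highest level of all 15 for 5 of 5 genes of a definitive endoderm list (Sox17 at 21.6 CPM against at most 3.60 elsewhere, Foxa2 at 23.2 against at most 14.8, Cxcr4 at 15.4 against at most 3.86, Gsc at 7.50 against at most 1.15, and Foxa1 at 18.8 against at most 15.7). It was also highest for 10 of 10 streak genes, which share Sox17, Foxa2 and Gsc with the first list, among them Lhx1 at 48.3 CPM against at most 4.82, and T at 71.8 against at most 19.1. The summed definitive endoderm level was 86.5 CPM there against 12.1 to 24.9 CPM in the other 14 libraries, and the streak sum was 295 against 20.3 to 96.3 CPM. For visceral endoderm, an embryonic source of Cer1 and Lefty1, 7 of 10 genes were highest there. Of these, Afp (0.718 CPM against at most 0.229), Apoa1 (2.40 against at most 1.35) and Ttr (2.48 against at most 1.99) were low in all libraries. Hhex was at 1.17 times the highest other library, and Gata4, Gata6 and Hnf4a were at 1.03 to 1.04 times. Sox7, Amn and Cubn went the other way, at 0.293, 0.605 and 0.411 times the highest other library. The summed visceral endoderm level was 134 CPM there, of which Cubn made up 38.9, and 97.8 to 165 CPM in the others. Its pluripotent sum was 3910 CPM, and that of the others 2430 to 4310 CPM. The share of all genes with their highest level in this library was not counted, so these list counts have no background to be set against. Whether cells of these types account for the Cer1 level was not tested. The same library had the highest Lefty1 and Lefty2 and the lowest Nodal among the Activin libraries.

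**Figure D5:**
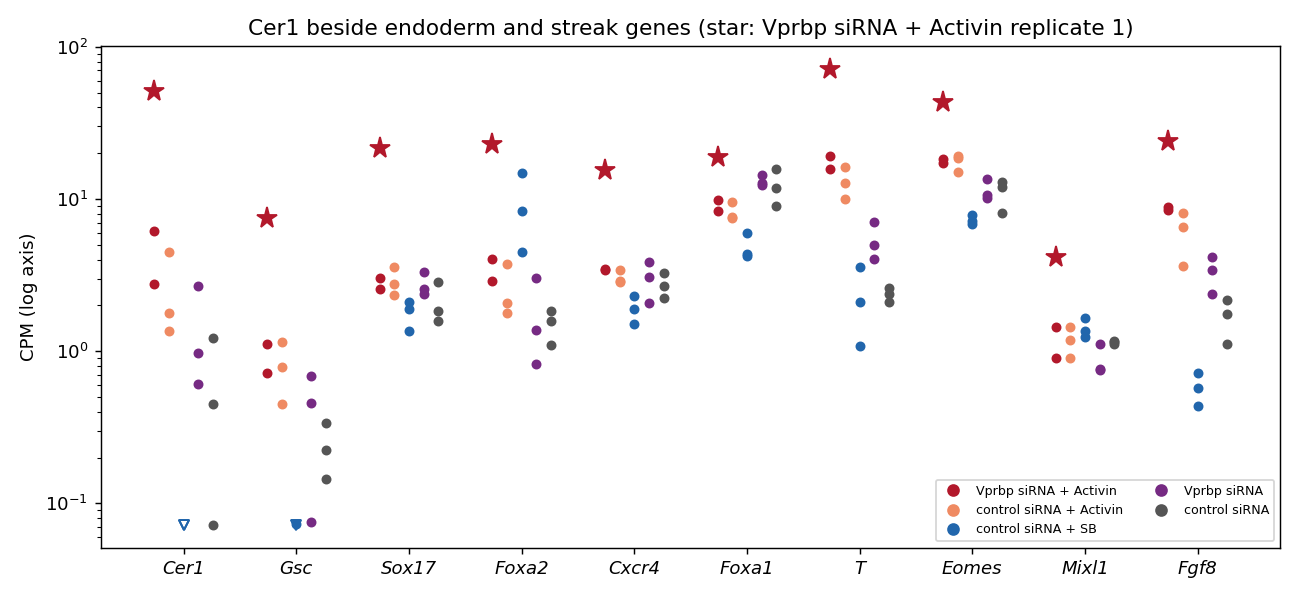
Level of Cer1 and of definitive endoderm and streak genes in the 15 libraries, in CPM on a log axis, coloured by group, with replicate 1 of Vprbp siRNA with Activin as a star and open triangles at the group limit for SB libraries at 0. The star is the highest point for each gene, 51.2 CPM for Cer1 against at most 6.14 CPM in the other 14 libraries.

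Activin in Vprbp siRNA cells raised Nodal (112.5 ± 7.82 against 87.9 ± 6.65 CPM; log2 fold change 0.36 ± 0.10, edgeR adjusted p = 0.037) and Lefty2 (223.2 ± 52.6 against 65.4 ± 26.8 CPM; 1.78 ± 0.41, adjusted p = 0.031). These were 2 of 5 genes, against 3.65% of all genes tested that were called higher. Lefty1 (1.35 ± 0.38, adjusted p = 0.070), Tdgf1 (0.99 ± 0.28, adjusted p = 0.064) and Cer1 (3.75 ± 1.22, adjusted p = 0.13) did not pass. Nodal, Tdgf1, Lefty1 and Lefty2 nevertheless had every Activin library above every untreated library, as did 11.2% of genes tested. The same held for Cer1, which passed the filter through libraries in which it was high and is not counted. DESeq2 called Nodal (adjusted p = 0.016), Tdgf1 (0.0054), Lefty1 (0.016) and Lefty2 (0.0028) higher, and it called 4.57% of all genes higher. DESeq2 also called Cer1 (adjusted p = 0.026), which is not counted for the same reason.

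Single libraries decided these calls. Nodal lost its call without Vprbp siRNA replicate 1 (0.33), Vprbp siRNA replicate 3 (0.34), Vprbp siRNA + Activin replicate 2 (0.32) or Vprbp siRNA + Activin replicate 3 (0.35), with adjusted p of 0.067 to 0.15. Lefty2 lost its call without Vprbp siRNA replicate 1 (1.89), Vprbp siRNA replicate 3 (1.47), Vprbp siRNA + Activin replicate 1 (1.58) or Vprbp siRNA + Activin replicate 2 (1.89), with adjusted p of 0.064 to 0.12. Tdgf1 gained a call without Vprbp siRNA replicate 2 (1.20, adjusted p = 0.044), and Cer1 gained a call without Vprbp siRNA + Activin replicate 3 (4.28, adjusted p = 0.049) and was at 1.61 without Vprbp siRNA + Activin replicate 1. Without the 3 libraries that lay apart, edgeR called Nodal, Tdgf1 (0.75, adjusted p = 0.0048), Lefty1 (0.91, adjusted p = 7.1e-09) and Lefty2. That fit called 3.05% of all genes higher. Both groups then held 2 libraries, and the libraries were left out with their Lefty levels known, so these p-values follow a choice made on these data.

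The response to Activin with Vprbp siRNA was then set against that with control siRNA in the same fit. The difference of log2 responses, Vprbp siRNA minus control siRNA, was -0.22 ± 0.14 for Nodal (95% interval -0.54 to 0.09), -0.17 ± 0.39 for Tdgf1 (-1.04 to 0.69), -0.29 ± 0.54 for Lefty1 (-1.48 to 0.91), -0.43 ± 0.57 for Lefty2 (-1.71 to 0.85) and 1.66 ± 2.31 for Cer1 (-3.48 to 6.80). The edgeR adjusted p was 1 for each. None of the 5 and 0% of all genes were called, while 3.54% of all genes and none of the 5 had an unadjusted p under 0.05. The sign for Lefty1, Tdgf1 and Cer1 turned when a single library was left out, at 0.06 for Lefty1 and 0.08 for Tdgf1 without control siRNA replicate 3, 0.02 and 0.04 without Vprbp siRNA replicate 2, and -0.49 for Cer1 without Vprbp siRNA + Activin replicate 1.

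A mean of the Vprbp siRNA effect over both Activin levels, added after the data were seen, called none of the 5 genes and 0.938% of all genes. It was 0.35 ± 0.19 for Tdgf1 (edgeR adjusted p = 0.44; 95% interval -0.08 to 0.78), 0.39 ± 0.29 for Lefty2 (0.58; -0.25 to 1.03), 0.30 ± 0.27 for Lefty1 (0.66; -0.30 to 0.90), 0.07 ± 0.07 for Nodal (0.70; -0.09 to 0.23) and 2.12 ± 1.06 for Cer1 (0.41; -0.25 to 4.49). DESeq2 called none of the 5, and none had an unadjusted p under 0.05, against 14.6% of all genes. Without the 3 libraries that lay apart, edgeR called Lefty1 (0.24, adjusted p = 0.0087), Lefty2 (0.25, adjusted p = 0.011) and Tdgf1 (0.36, adjusted p = 0.048), and 2.25% of all genes higher. Here too the libraries were left out with their Lefty levels known.

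Other genes of the pathway were counted from lists by role. With Activin and control siRNA, 0 of the 4 measured genes of 6 listed ligands and processing enzymes, 0 of 4 measured receptors and co-receptors of 5, 0 of 5 transducers and 0 of 6 other extracellular inhibitors were called, with list medians of -0.11, 0.14, 0.07 and -0.12 log2 against -0.01 over all genes. Of all genes tested, 2.95% were called higher and 1.88% lower, so counts of 0 in lists this short do not set them apart. With SB, Inhbb, which encodes an Activin and inhibin subunit, fell to 16.7 ± 1.91 CPM against 86.7 ± 5.75 CPM in untreated control siRNA (-2.37, edgeR adjusted p = 9.8e-10). It was the only call of the 4 measured ligands and processing enzymes, against 11.2% of all genes called higher and 11.3% lower. The receptor gene Acvr1b, which encodes ALK4, was at 53.9 ± 2.45 CPM with SB and 56.5 ± 3.16 CPM without (-0.07, adjusted p = 0.61). The transducers Smad2 (0.30, adjusted p = 0.0012), Smad3 (0.36, adjusted p = 0.014) and Foxh1 (0.24, adjusted p = 0.022) rose with SB, 3 of 5 in their list against 11.2% of all genes called higher. The list's median was 0.24 against 0 over all genes. Fstl3, which encodes a follistatin-like inhibitor of Activin, fell (-0.86, adjusted p = 0.015), the only call of 6 other inhibitors, against the same shares of all genes, 11.2% higher and 11.3% lower. Between Vprbp siRNA and control siRNA none of the genes of these lists was called, with or without Activin, against 0.0411% of all genes tested in each comparison. Activin with Vprbp siRNA did give calls. Inhbb (-0.489, edgeR adjusted p = 0.019) and Pcsk6 (-0.336, adjusted p = 0.027) fell, 2 of 4 measured, against 2.47% of all genes. Foxh1 (0.385, adjusted p = 0.0033), 1 of 5 transducers, and Nog (2.00, adjusted p = 0.0031), 1 of 6 other inhibitors, rose, against 3.65% of all genes.

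The other EGF-CFC co-receptor gene, Cfc1, was low, at 5.45 ± 5.88 CPM in Vprbp siRNA with Activin, against 0.698 ± 0.0493 CPM in Vprbp siRNA (2.93, edgeR adjusted p = 0.018), the only call of 4 measured receptors and co-receptors in that comparison, against 3.65% of all genes called higher. Its wide spread includes a library at 12.2 CPM. The Cerberus-related gene Dand5 stayed between 3.18 ± 0.545 and 4.30 ± 0.0873 CPM across groups and was not called with Activin (-0.15, adjusted p = 0.71) or SB (-0.34, adjusted p = 0.24). Gdf1, whose product pairs with Nodal in the embryo, had 0 counts in all 15 libraries. Overlap with other annotated genes was not checked for Gdf1, so this 0 is not read as absence of its RNA. The related ligand gene Gdf3 lay between 82.6 ± 3.96 and 94.6 ± 7.71 CPM.

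Streak genes include known targets of Nodal in the embryo. Against SB, 6 of 10 rose with Activin and control siRNA, against 19% of all genes, with a median of 1.90, among them Fgf8 (3.39), Eomes (1.28) and Wnt3 (0.96). Against untreated cells, with Activin and control siRNA, 2 of 10 rose, among them Fgf8 (1.86, edgeR adjusted p = 0.041), against 2.95% of all genes, with a list median of 1.21 against -0.01. With Activin in Vprbp siRNA 4 of 10 rose, against 3.65% of all genes, a count that was also 4 without Vprbp siRNA + Activin replicate 1. Of the pluripotent list, 5 of 8 fell with SB, against 11.3% of all genes, among them Pou5f1 (364.2 ± 27.9 against 700.6 ± 36.1 CPM; -0.94, adjusted p = 2.6e-09) and Dppa5a (-1.60, adjusted p = 2.3e-10), with a median of -0.46 against 0.

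Neuroectoderm genes moved with Activin as well as with SB. With Activin and control siRNA, 3 of 6 fell, against 1.88% of all genes, namely Pax6 (-1.03, edgeR adjusted p = 0.00032), Sox1 (-0.67, adjusted p = 0.0049) and Tubb3 (-0.61, adjusted p = 0.0056), with a list median of -0.64. With Activin and Vprbp siRNA, 4 of 6 fell, against 2.47% of all genes, with a median of -0.71. The summed level of the list was 93.2 to 110 CPM in Vprbp siRNA with Activin, 93.5 to 100 CPM in control siRNA with Activin, 157 to 171 CPM with SB, 150 to 177 CPM in Vprbp siRNA and 146 to 168 CPM in control siRNA, so the Activin groups did not overlap the others. With SB, 3 of 6 rose, against 11.2% of all genes, among them the forebrain gene Hesx1 (3.70, edgeR adjusted p = 5.2e-10), with a list median of 0.92. Sox1 fell with SB as it did with Activin, 1 of 6 against 11.3% of all genes. It was at 29.1 ± 4.46 CPM with SB against 53.5 ± 2.79 CPM in untreated control siRNA (SD, n = 3 each). Of 9 measured visceral endoderm genes, 1 was higher and 1 lower with SB, against 11.2% and 11.3% of all genes, and 2 were higher with Activin, against 2.95% of all genes. Of 5 measured fibroblast genes, 2 were lower with SB, against 11.3% of all genes, and 1 was lower with Activin, against 1.88%. Of 5 definitive endoderm genes, 1 was lower with SB, against 11.3% of all genes. None of these 5 was called with Activin, where 2.95% of all genes were called higher and 1.88% lower. The part of these markers in the levels of Nodal, Tdgf1 and the antagonists was not tested.

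Profiles across the 15 libraries were compared by the root mean square difference of centred log2 CPM, over 12059 named genes. Nodal lay closest to Ubr7 (0.10), Zbed5 (0.11) and Apela (0.12), and Apela encodes the secreted peptide Elabela, a ligand of the apelin receptor. Lefty1 and Lefty2 lay closest to each other (0.33), and Fgf15 (0.93 and 0.92) and Tmem154 (0.91 and 0.96) were among the genes nearest to both. Tdgf1 lay closest to Bcl11a (0.29), Wt1 (0.34) and Has2 (0.35), and Cer1 to Fgf8 (1.11), Pga5 (1.16) and T (1.17). Across the 15 libraries the SD of log2 CPM was 0.60 for Nodal, 1.62 for Tdgf1, 2.36 for Cer1, 2.83 for Lefty1 and 2.89 for Lefty2, which is the scale on which the distances were measured.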

How the data were processed

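RNA sequencing counts of 15 libraries in 5 groups of 3 were analysed. The deposited table holds whole fragment counts per gene symbol, with no normalization, made by the authors with HTSeq 0.6.1p1 on mm10, per the submitters' processing notes. No source used here states their aligner, gene annotation or strand setting. The table also holds 5 tallies that name no gene, which entered neither library sizes nor tests. Among them, fragments outside genes made up 10.3% to 16% of a library, ambiguous fragments 0.678% to 0.722% and unaligned fragments 27.7% to 29.5%. A count of 0 in a library allows 0.196 to 0.271 CPM, taking 3 counts as the limit; limits cover counting error only. Groups and replicate numbers came from the sample titles.

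Genes were kept by edgeR 4.0.16 filterByExpr (minimum count 10), scaled by TMM and tested in R 4.3.3 by edgeR's quasi-likelihood test (robust fit, all 15 libraries, 1 mean per group, 10 residual degrees of freedom), with Benjamini-Hochberg adjustment over the genes tested within a comparison and a threshold of 0.05. "Rose", "fell", "raised" and "lowered" are used for genes past it. The SE is the log2 fold change over the square root of its F statistic. The Lefty1 to Lefty2 ratio was compared by exact permutation over libraries. The procedure was tested on simulated data. Lengths are exon unions of GENCODE M21 on GRCm38, the assembly also called mm10, and gene positions and promoters are RefSeq's on GRCm38.p6.

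The 5 genes, the 10 pathway and marker lists and the tests were chosen with earlier results of these data known. The named genes are the 5 genes and Vprbp, up to 4 per list with the smallest p in Activin against SB, and the 3 nearest profiles per gene among genes whose mean log2 CPM was 1 or more (prior count 2); other genes of the lists were named for their role or level after their values were seen. A gene that the rule names is not reported here. Alternatives were RLE factors, library totals, no filter, DESeq2 1.42.0, a filter of 1 CPM in 3 or more libraries, the replicate number as a block, only the libraries compared, leaving out each library, and leaving out the 3 libraries that lay apart. Replicate numbers were checked as a pairing from the data alone: deviations from group means of same-numbered libraries correlated over genes at 0.12, 0.20 and 0.37 between Vprbp siRNA and control siRNA without Activin, and no other comparison passed 0.1 at all 3 numbers. Replicates of a group differed beyond sampling noise in all 15 pairs (chi-square over its degrees of freedom, 2.73 to 15.7).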

Additional observations from a re-analysis of the deposited data

How the results depend on the processing

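The calls with SB in control siRNA and of Activin against SB were 4 of 5 genes under every alternative run, leave-one-out fits included (4 to 4), with Cer1 added by DESeq2 in both and by the fit of only the libraries compared in the second. RLE factors, library totals and a 1 CPM filter left each of the member counts where it was. Calls of Cer1, here and in what follows, are of a gene that passed the filter through libraries in which it was high. For Activin with control siRNA, 4 genes became 2 with no filter and 1 in the fit of only the libraries compared, and 1 to 3 when a library was left out. For Activin with Vprbp siRNA, 2 genes became 5 with DESeq2, 4 with the replicate block (Lefty1 adjusted p = 0.036 and Tdgf1 adjusted p = 0.026 added), 1 with only the libraries compared, 4 without the 3 libraries that lay apart, and 0 to 3 when a library was left out; the numbers do not pair those samples. Without the 3 libraries, 0 genes became 2 for Vprbp siRNA without Activin and 3 for its mean over Activin levels. Those libraries were left out with their Lefty levels known. The replicate block changed no other call of the 5 genes. It moved the genes called over all tested to 18 against 6 for Vprbp siRNA without Activin, to 51 against 6 with Activin, where DESeq2 called 76, and to 1058 against 705 for Activin with control siRNA; DESeq2 called 31 for Vprbp siRNA without Activin. For Vprbp siRNA with Activin, Nodal (-0.04; -0.08 to 0.02 when a library was left out) turned to 0.02 without Vprbp siRNA + Activin replicate 1, to 0 without control siRNA + Activin replicate 3 and to 0.02 without the 3 libraries, and Lefty2 (0.18; -0.03 to 0.29) to -0.03 without that replicate 1 or the 3 libraries. For the difference of Activin responses, values when a library was left out ran from -0.61 to 0.06 for Lefty1 (0.02 without Vprbp siRNA replicate 2, 0.06 without control siRNA replicate 3), -0.41 to 0.08 for Tdgf1 (0.04 and 0.08) and -0.49 to 2.54 for Cer1. The Lefty1 to Lefty2 difference of Activin against SB, -0.07, was 0.13 with 2 CPM added and 0.17 without control siRNA + SB replicate 2. The causes were not tested. Groups of 3, 10 to 25 Lefty counts per SB library and Cer1 counts of 0 to 642 limit precision.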
